A study of Mus musculus with 32 samples.

Results

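The sites at which anti-HA (for tagged Ikaros) and CHD4 ChIP-seq signal was called before induction were described here from 4 peak lists of B3 cells, 2 for Ikaros and 2 for CHD4, all at 0 h, among the 24 lists of the series. The 4 lists were merged into 13044 regions, and 3 classes of region were taken from them by which lists had called each one. The first class was called in all 4 lists (1345 regions, 10.3% of the merged regions), the next in both Ikaros lists and neither CHD4 list (2719 regions, 20.8%, called Ikaros-only), and the last in both CHD4 lists and neither Ikaros list (283 regions, 2.17%, called CHD4-only). These classes held 4347 regions together, and the remaining 8697 regions had another combination of calls.

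B3 is a mouse pre-B cell line, here transduced with a retrovirus that expresses an Ikaros (IKZF1) fusion carrying HA and ERt2. The transduced cells were sorted as a pool on GFP, and the promoter of the viral vector, not that of Ikzf1, drives the fusion. ERt2 keeps a fused protein largely out of the nucleus until 4-hydroxytamoxifen (4-OHT) is given, and the 0 h cells of every group used here had received none. ChIP-seq with anti-HA beads (Ikaros), an antibody to CHD4 or an antibody to H3K27ac was carried out in 2 replicates at 0 h and again 30 min, 1 h and 2 h after 500 nM 4-OHT. Untagged Ikaros made by the cells themselves does not carry the tag that the HA beads bind, and cells without the construct were not analysed here, so HA-dependent signal and any background of the beads cannot be told apart at 0 h.

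Ikaros is a zinc finger DNA-binding protein needed for lymphoid development, and its fingers recognise sites built on a GGGA or GGAA core. It associates with the NuRD complex, which joins a nucleosome remodelling ATPase (CHD4) with histone deacetylases (HDAC1 and HDAC2). H3K27ac is the acetylated histone mark of active promoters and enhancers. In pre-B cells Ikaros is known for repressing genes of the pre-B cell receptor, such as Igll1 and Vpreb1.

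The DNA under the strongest regions of each class is shown as an example of what the lists called, and it varied within the classes as well as between them. Capitals mark every GGAA or GGGA core and its reverse complement (overlapping words were counted separately), coordinates are those of GRCm38 (mm10), the plus strand is printed, and the windows were centred on the stronger Ikaros summit or, for CHD4-only regions, on the midpoint. The top region of all 4 lists lay in an intron within the sorting nexin gene Snx29 and the noncoding gene Gm4279, and is a tandem array with 38 core words in 300 bases and no CG dinucleotide (chr16:11686360-11686659). The region ranked next lay in an intron of Atxn7l1 and held 7 core words (chr12:33325347-33325646). The top Ikaros-only region covered the TSS of Pa2g4, a growth regulator that binds RNA and ErbB3, and held 19 core words and 26 CG dinucleotides (chr10:128566018-128566317). The next one covered the TSS of Cmc1, a cytochrome c oxidase assembly factor, and the 240 bases outside its annotated UTR held 11 core words (chr9:118150178-118150417). The top CHD4-only region was intergenic, 6822 bp from the noncoding gene Gm13403, and held 7 core words (chr2:33934463-33934762). Another CHD4-only region, over the gene Gm21887 on the X chromosome, is a tandem repeat with 1 core word in its central 300 bases (chrX:170013850-170014149).

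all 4 lists, Snx29 intron: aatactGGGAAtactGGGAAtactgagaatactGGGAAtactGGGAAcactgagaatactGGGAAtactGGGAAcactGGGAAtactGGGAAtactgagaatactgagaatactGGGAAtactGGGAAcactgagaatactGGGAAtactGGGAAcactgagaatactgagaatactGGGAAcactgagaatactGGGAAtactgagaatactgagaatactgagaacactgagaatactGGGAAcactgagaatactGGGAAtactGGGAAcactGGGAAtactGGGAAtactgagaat
all 4 lists, Atxn7l1 intron: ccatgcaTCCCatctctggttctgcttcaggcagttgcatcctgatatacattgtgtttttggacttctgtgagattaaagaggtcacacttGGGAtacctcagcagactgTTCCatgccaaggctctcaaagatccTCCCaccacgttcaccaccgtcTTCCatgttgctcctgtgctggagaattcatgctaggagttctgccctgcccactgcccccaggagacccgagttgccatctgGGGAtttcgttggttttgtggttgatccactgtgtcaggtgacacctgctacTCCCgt
Ikaros-only, Pa2g4 TSS: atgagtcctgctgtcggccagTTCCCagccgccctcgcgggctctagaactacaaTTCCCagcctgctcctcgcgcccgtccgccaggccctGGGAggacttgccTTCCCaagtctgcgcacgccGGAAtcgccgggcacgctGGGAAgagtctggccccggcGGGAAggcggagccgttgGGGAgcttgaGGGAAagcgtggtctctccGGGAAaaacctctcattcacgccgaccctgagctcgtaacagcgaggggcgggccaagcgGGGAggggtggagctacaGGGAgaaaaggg
Ikaros-only, Cmc1 TSS: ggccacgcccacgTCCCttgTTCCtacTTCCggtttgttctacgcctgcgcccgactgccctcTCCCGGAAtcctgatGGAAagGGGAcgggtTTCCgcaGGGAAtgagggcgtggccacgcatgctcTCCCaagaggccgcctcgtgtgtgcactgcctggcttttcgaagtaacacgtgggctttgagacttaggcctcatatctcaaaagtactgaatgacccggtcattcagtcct
CHD4-only, near Gm13403: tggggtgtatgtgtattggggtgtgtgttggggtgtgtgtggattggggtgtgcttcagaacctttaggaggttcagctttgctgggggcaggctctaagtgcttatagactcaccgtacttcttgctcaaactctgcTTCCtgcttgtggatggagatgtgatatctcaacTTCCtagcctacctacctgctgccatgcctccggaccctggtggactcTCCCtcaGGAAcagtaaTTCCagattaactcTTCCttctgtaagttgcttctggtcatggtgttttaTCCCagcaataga
CHD4-only, Gm21887: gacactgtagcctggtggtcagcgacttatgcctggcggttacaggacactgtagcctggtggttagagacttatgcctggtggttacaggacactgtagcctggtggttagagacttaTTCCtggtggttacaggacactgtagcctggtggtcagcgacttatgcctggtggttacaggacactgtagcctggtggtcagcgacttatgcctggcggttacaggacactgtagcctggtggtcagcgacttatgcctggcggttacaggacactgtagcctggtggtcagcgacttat

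The lists differed in length. Ikaros replicate 1 held 7822 peaks and replicate 2 held 9527, whereas CHD4 replicate 1 held 2488 and replicate 2 held 6000. Ikaros peaks were narrow (median widths of 401 and 435 bp) and reached folds of 43.7 and 45.9 over the local background, with medians of 4.74 and 5.2. CHD4 peaks, called in broad mode, were wider (562 and 763 bp) and flatter, with maxima of 5.79 and 7.2 and medians of 3.56 and 3.36. Between the Ikaros and CHD4 lists, peak strength was therefore set side by side only as the percentile of the fold within its own list. The lowest −log10 q was 1.32 and 1.30 in the Ikaros lists and 1.07 and 1.01 in the CHD4 lists, so missing calls mean only that the signal did not reach these thresholds. H3K27ac lay in both 0 h lists within 1 kb of a TSS of 11 of 12 pre-B cell marker genes, 5 of 12 T cell, 2 of 12 erythroid and megakaryocyte, 0 of 12 myeloid and 0 of 12 non-blood marker genes, beside 44.4% of all 21911 protein-coding genes.

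Between 49.8% and 68.6% of the peaks in a CHD4 list overlapped the uninduced HA signal by at least 1 bp, while most HA peaks of each list had no CHD4 call. Of the CHD4 peaks, 64.0% in replicate 1 and 61.0% in replicate 2 overlapped an Ikaros peak of the same replicate number, and with the numbers crossed the shares were 68.6% and 49.8%. The reverse share was 22.1% of Ikaros peaks in replicate 1 and 42.8% in replicate 2, and 41.9% and 19.2% with the numbers crossed. Among the 1889 regions called in both CHD4 lists, 71.2% were in both Ikaros lists and 15% in neither. Of the 5729 regions called in both Ikaros lists, 23.5% were in both CHD4 lists and 47.5% in neither, and a further 1490 were called in CHD4 replicate 2 alone against 175 in replicate 1 alone. The class sizes moved with the lists used: with replicate 2 alone (1 list per target) 3660 regions were shared, 5454 were Ikaros-only and 2339 CHD4-only, and with replicate 1 alone the numbers were 1591, 6094 and 895. With all 4 lists cut to the same length they were 514, 775 and 506.

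**Figure D1:**
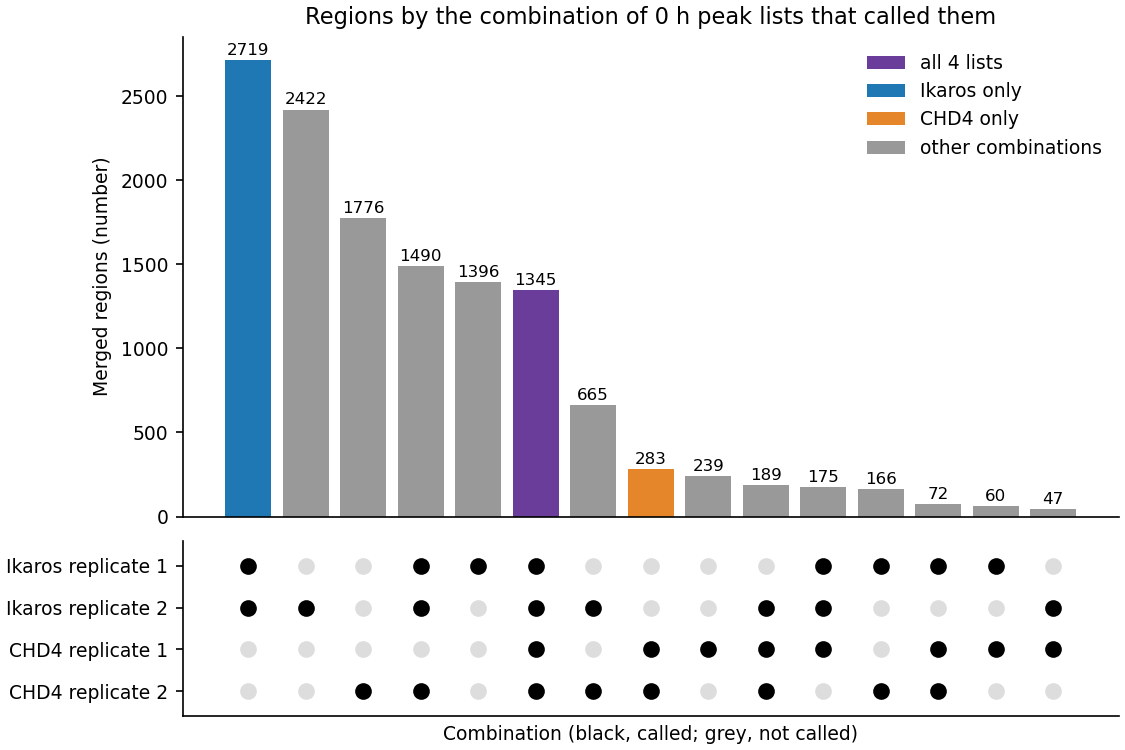
Number of merged regions (bars, vertical axis) for each of the 15 combinations of the 4 peak lists at 0 h, with black dots marking the lists that called the region. The most frequent combination was both Ikaros lists alone (2719 regions), 1345 regions were in all 4 lists, and 283 were in both CHD4 lists alone.

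Regions in all 4 lists and CHD4-only regions lay farther from genes' starts than Ikaros-only regions. A TSS lay within 1 kb of 32.6% of the regions in all 4 lists, 35.0% of the CHD4-only regions and 58.4% of the Ikaros-only regions, beside 45.9% of all merged regions. The median distance to a TSS was 3903 bp for all 4 lists, 4008 bp for CHD4-only and 311 bp for Ikaros-only regions. Midpoints fell in an annotated UTR in 15% of Ikaros-only regions, 4.98% of regions in all 4 lists and 3.89% of CHD4-only regions, and in introns in 38.9%, 47.1% and 44.2%. Regions in all 4 lists were also wide, with a median of 1579 bp against 525 bp for Ikaros-only and 1116 bp for CHD4-only regions. Width follows in part from the class rule, since a region joins all its peaks and CHD4 peaks were called in broad mode. Measured from the midpoint in place of the edge, so that width gave no advantage, the difference in promoter share between regions in all 4 lists and Ikaros-only regions was −31.1 percentage points, against −25.8 points from the edge.

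**Figure D2:**
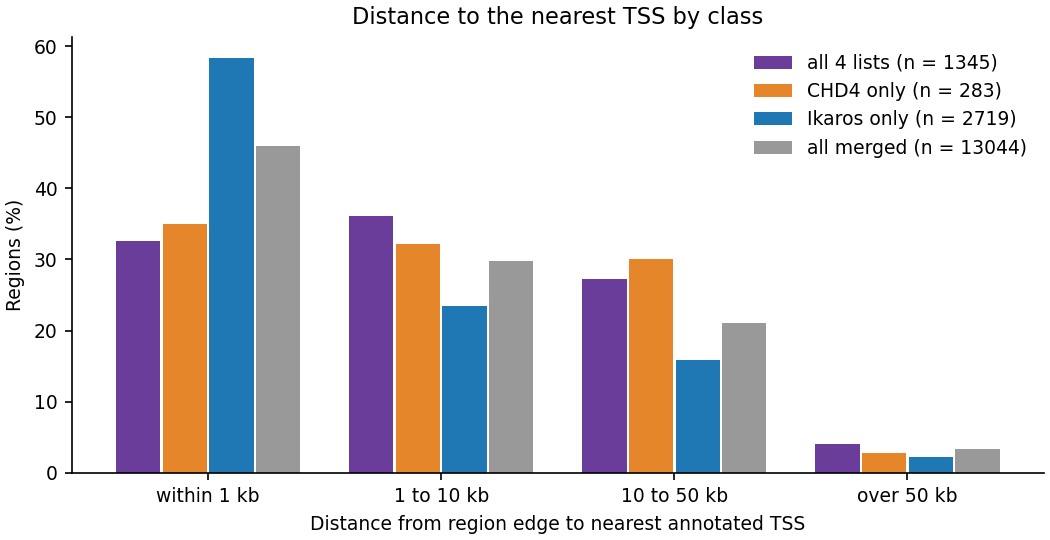
Share of regions (vertical axis, %) by distance from the region's edge to the nearest annotated TSS, for the 3 classes and all merged regions. Ikaros-only regions stand out within 1 kb (58.4%), and regions in all 4 lists (32.6%) and CHD4-only regions (35.0%) have the lower promoter shares.

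The lists themselves showed the same order. The promoter share was 47.9% and 44.4% in the Ikaros lists and 30.7% and 36.3% in the CHD4 lists, so the pairs did not overlap. The CHD4 mean of 33.5% ± 3.98 (SD, n = 2) lay below the Ikaros mean of 46.1% ± 2.49 (SD, n = 2), a difference of −12.6 points with an exact two-sided permutation p = 0.33, which is the smallest that 2 lists against 2 can give. Without replicate 1 this difference was −8.06 points, and the promoter differences from Ikaros-only regions were −16 points for all 4 lists and −14.7 for CHD4-only regions, against −25.8 and −23.5 with both replicates.

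HA peak strength and place both went with CHD4. In replicate 1, CHD4 overlapped 8.51% of promoter HA peaks at fold percentiles 0 to 25 and 28.4% at percentiles 90 to 100, and 18.8% and 60.2% of distal HA peaks (over 1 kb from a TSS). In replicate 2 the shares were 22.9% and 53.2% at promoters and 38.1% and 83.8% at distal sites. Distal peaks had the higher share in every one of the 5 fold bins of both replicates. Averaged over the bins, the distal share exceeded the promoter share by 18.8 points in replicate 1 and 19 points in replicate 2, a mean of 18.9 ± 0.162 (SD, n = 2). Among HA peaks that also lay in both H3K27ac lists, the difference was 24.2 points. Only 19.7% and 9.63% of the CHD4 peaks reached a −log10 q of 3, and among peaks that did so the difference was 5.4 points. This measure was added after the data had been seen, and peaks are not replicates, so it was not tested over peaks.

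**Figure D3:**
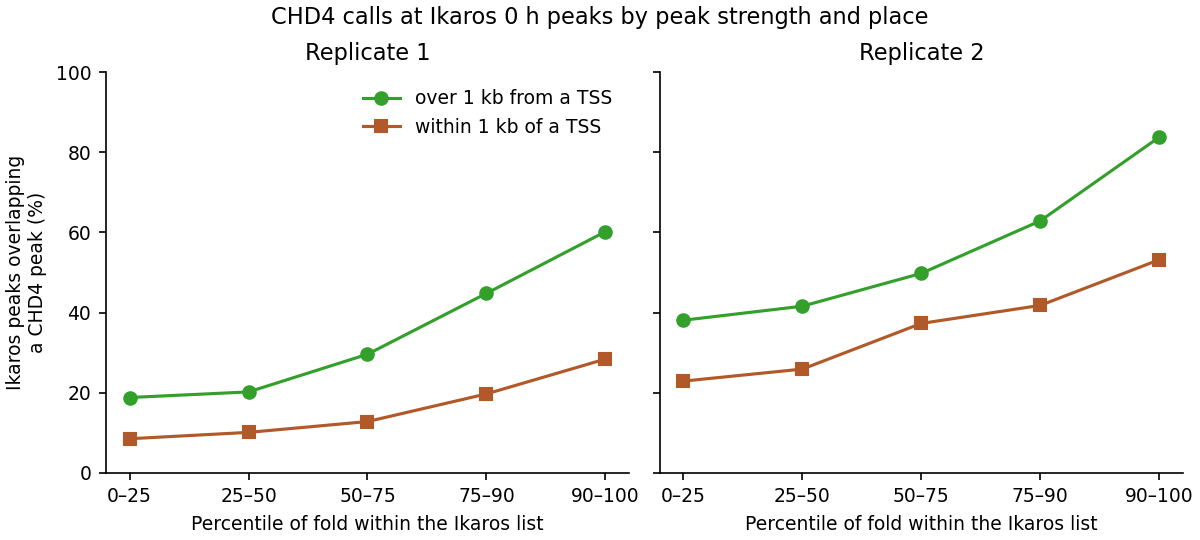
Share of Ikaros 0 h peaks that overlap a CHD4 0 h peak of the same replicate number (vertical axis, %) against the percentile of the Ikaros fold within its list, for peaks within 1 kb of a TSS (squares) and farther away (circles). Both lines climb with fold, from 8.51% to 28.4% at promoters and from 18.8% to 60.2% at distal sites in replicate 1, and the distal line lies above in each bin.

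The classes ranked accordingly in the HA lists. The median fold of regions in all 4 lists was 6.26 (percentile 75.6) in Ikaros replicate 1 and 7.47 (percentile 78.8) in replicate 2, against 4.96 (53.9) and 5.48 (55.4) for Ikaros-only regions. The fold of a region was that of its strongest peak in the list, and 25.5% of regions in all 4 lists held more than 1 Ikaros peak in a list, against 1.36% of Ikaros-only regions. Among regions with 1 Ikaros peak per list, the difference in median percentile was 22.8, an alternative added after the data had been seen. The quartiles overlapped, since in replicate 1 they ran from 4.74 to 8.40 in all 4 lists and from 4.10 to 6.25 in the Ikaros-only class. When every list was cut to the length of the shortest, the difference in median percentile was 4.52 in place of 22.7. In the CHD4 lists, regions in all 4 lists had median folds of 3.63 (percentile 58.7) and 3.55 (70.5), and CHD4-only regions had 3.49 (41.1) and 3.31 (43.4). Of CHD4 peaks at fold percentiles 0 to 25, 51.6% and 45.6% overlapped HA signal in replicates 1 and 2, and 79.9% and 81.5% did so at percentiles 90 to 100. Within regions in all 4 lists the Ikaros summit lay a median of 221 and 276 bp from the midpoint of the CHD4 peak, and inside that peak in 75.5% and 89.4% of regions. Peaks of such a region overlap or are linked by overlap through the class rule. The distances and shares that the rule and the peak widths alone would give were not computed.

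Nearly every region in all 4 lists carried H3K27ac before induction. Both 0 h H3K27ac lists covered 97.6% of regions in all 4 lists, 83.9% of Ikaros-only and 84.1% of CHD4-only regions, beside 84.1% of all merged regions. The classes were farther apart away from promoters: among distal regions the shares were 97.8%, 70.3% and 78.3%, beside 77.4% of all merged distal regions, and within 1 kb of a TSS they were 97.3%, 93.5% and 94.9%, beside 92%. The overlapped H3K27ac peaks had a median fold percentile of 88.5 and 86.5 (H3K27ac replicates 1 and 2) in all 4 lists, 82.6 and 76.6 in CHD4-only and 71.5 and 67.6 in Ikaros-only regions, beside 75.7 and 72 over all merged regions. At distal sites the medians were 87.9 and 85.4, 80.5 and 72.3, and 57.1 and 49.5 in the same order, beside 70 and 64.9. Where a region met several H3K27ac peaks the strongest was taken, so a wider region could meet a stronger peak. The median width was 1579 bp in all 4 lists, 1116 bp in CHD4-only and 525 bp in Ikaros-only regions. The part of width in these medians was not tested. Neither H3K27ac list called 24 regions of all 4 lists (1.78%), 311 Ikaros-only regions (11.4%) and 37 CHD4-only regions (13.1%), beside 1489 of all merged regions (11.4%). With a −log10 q of at least 3, only 135 regions were in all 4 lists and 45 in the CHD4-only class, and the difference in H3K27ac share from Ikaros-only regions turned to −1.69 and −46.9 points. This cut is not like for like, because q-values of broad peaks are on another scale. It kept 88.7% and 87.1% of the Ikaros peaks and 19.7% and 9.63% of the CHD4 peaks (replicates 1 and 2).

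**Figure D4:**
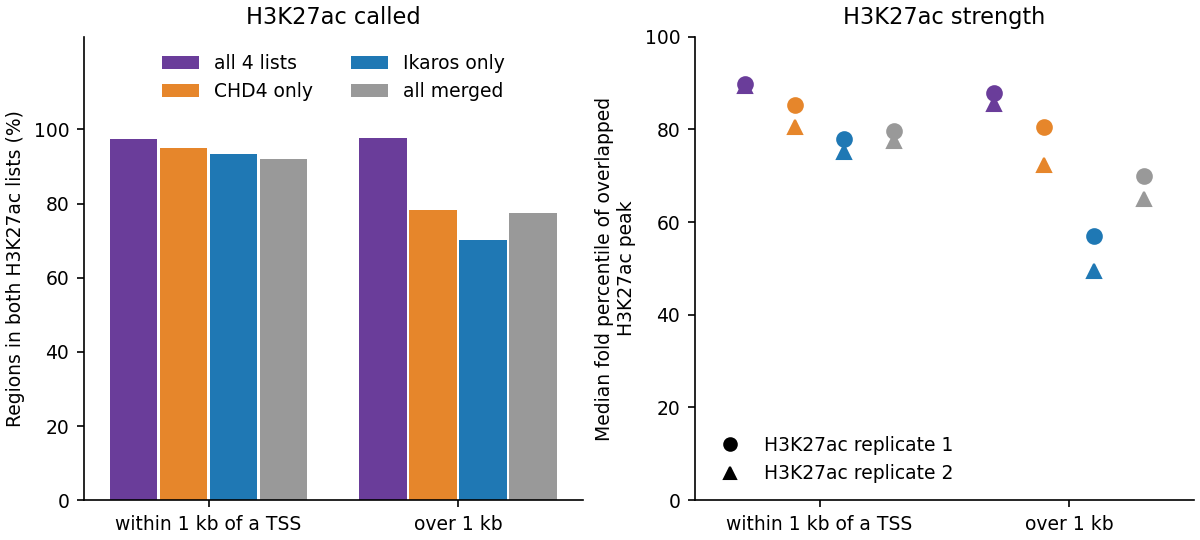
Left, share of regions called in both H3K27ac 0 h lists (vertical axis, %) by class and distance to a TSS. Right, median percentile of the fold of the strongest overlapped H3K27ac peak within its list (circles, replicate 1, and triangles, replicate 2). Distal Ikaros-only regions have the lowest share (70.3%) and the lowest percentiles (57.1 and 49.5).

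In the whole lists, H3K27ac covered 86.2% ± 0.718 (SD, n = 2) of Ikaros peaks and 90.9% ± 1.33 (SD, n = 2) of CHD4 peaks, a difference of 4.68 points (exact two-sided permutation p = 0.33, the smallest possible). Kept to a −log10 q of at least 3, a cut that removed most CHD4 peaks and few Ikaros peaks, the difference was −2.93 points.

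Of the 8 regions ranked highest in all 4 lists, 1 had its midpoint in a UTR and the others in introns or between genes, where 47.1% and 41.2% of the class lay. The array in Snx29 (chr16:11685378-11688523) had folds of 26.0 and 40.4 for Ikaros and 4.54 and 6.63 for CHD4, with no H3K27ac in either list. The Atxn7l1 intron (chr12:33325157-33325814) had 18.5 and 22.7 for Ikaros and 4.28 and 4.95 for CHD4, again without H3K27ac. These were the only regions of the top 8 that lacked the mark. Next came a region in a UTR of Pax7 (chr4:139737997-139739947), a muscle and neural crest transcription factor gene, and 84448 bp from the nearest TSS, that of the taste receptor gene Tas1r2, with Ikaros folds of 13.6 and 17.8, CHD4 folds of 4.67 and 4.41 and an H3K27ac percentile of 91.3 and 98.7. A region in an intron of Pxn, which encodes the focal adhesion adaptor paxillin, had Ikaros folds of 18.1 and 14 and CHD4 folds of 4.57 and 4.39 (chr5:115529521-115531035). Rab31, a small GTPase gene of vesicle transport, had the only promoter region among the 8, 259 bp from a TSS, with 15.7 and 19.2 for Ikaros and 4.27 and 4.44 for CHD4 (chr17:65770897-65772381). The others lay in an intron of Cux1 (chr5:136499832-136501005) and between genes (chr9:61702329-61703145 and chr10:95707546-95709061), with Ikaros folds of 11.9 and 14.9, 10.1 and 16.1, and 33.4 and 25.3. Ikaros was called at each of the 8 in all 6 later Ikaros lists, beside 67.4% of the class and 22.4% of all merged regions. CHD4 was called in all 6 later CHD4 lists at 6 of the 8, in 5 at Pxn and in 2 at Atxn7l1, beside 39.6% of the class and 7.62% of all merged regions called in all 6.

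All of the 6 strongest Ikaros-only regions covered a TSS and carried H3K27ac in both lists, beside 37.5% with a TSS inside and 83.9% with H3K27ac in the class, and 24.3% and 84.1% of all merged regions. Pa2g4 had the highest HA fold of both lists, 43.7 and 45.9, with no CHD4 call at 0 h (chr10:128565766-128566748). Cmc1 had folds of 28.0 and 38.7 (chr9:118149971-118150944), and Srl, the gene of the calcium-binding protein sarcalumenin, had 26.0 and 38.5 (chr16:4541658-4542198). The noncoding gene Gm13421 had 24.3 and 26.0 (chr2:27539990-27540530). The last were Chmp5, an ESCRT-III subunit, with 22.7 and 23.0 (chr4:40948244-40948980), and Ubap1, an ESCRT-I subunit, with 16.2 and 31.3 (chr4:41348537-41349441). CHD4 was called later at Cmc1 and Srl in 5 of 6 lists each, at Pa2g4, Gm13421 and Chmp5 in 2 of 6 each and at Ubap1 in 1 of 6, beside 0.809% of the class called in all 6 and 47.1% in none.

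The strongest CHD4-only regions were of mixed kinds, and 3 of the 6 lacked H3K27ac, beside 13.1% of the class and 11.4% of all merged regions. The intergenic region near Gm13403 had CHD4 folds of 4.70 and 7.20, the second being the maximum of its list, and was called for CHD4 in 6 of 6 later lists and for Ikaros in 0 of 6 (chr2:33933934-33935291), beside 28.6% of the class with CHD4 in all 6 and 15.9% with Ikaros in none. A region 36 bp from a TSS of Ctnnb1, the gene of beta-catenin, had 4.59 and 4.42 without H3K27ac (chr9:120932949-120933364). A region 4639 bp from Ostc, a subunit of the oligosaccharyltransferase complex, had 4.16 and 4.27 (chr3:130714083-130714988), and one in an intron of Mocos, the molybdenum cofactor sulfurase gene, had 4.12 and 4.46 (chr18:24672165-24673413). The remaining regions were 8174 bp over Gm21887 on the X chromosome, with folds of 4.59 and 5.95, and 9893 bp over Gm47283 on the Y chromosome, with 4.08 and 4.70, and the central 300 bases of both were wholly repeat-masked. Repeats filled over 50% of the window in 21.6% of CHD4-only regions, 7.58% of regions in all 4 lists and 1.47% of Ikaros-only regions, beside 6.75% of all merged regions. The part of repeats in the CHD4-only calls was not tested.

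Of the genes of the pre-B cell receptor and of B cell receptor signalling, 8 of 27 had a region of all 4 lists within 1 kb of a TSS, beside 359 of 21911 protein-coding genes (1.64%) and 345 of the 9720 with H3K27ac at a TSS (3.55%). Ikaros-only regions lay there at 3 of 27 (11.1%), beside 7.66% and 16.8%, and CHD4-only regions at 1 of 27, beside 0.383% and 0.854%. Igll1, which encodes the lambda5 chain of the surrogate light chain, had one over its TSS with Ikaros folds of 7.25 and 6.16 and CHD4 folds of 3.92 and 3.58 (chr16:16863757-16866522), and a second one 5294 bp away with 8.40 and 8.66 for Ikaros and 3.72 and 3.27 for CHD4. Vpreb1, another surrogate light chain gene, shares both of these regions, at 2695 and 10526 bp. The region over the TSS of Vpreb1 itself had Ikaros folds of 2.61 and 5.19 and a CHD4 fold of 3.34 in replicate 2, with no CHD4 call in replicate 1 (chr16:16869510-16871083). For the signalling subunits of the receptor, Cd79a had Ikaros folds of 4.53 and 7.36 and CHD4 folds of 3.88 and 3.56 over its TSS, and Cd79b had 3.48 and 3.62 for Ikaros and 4.05 and 3.98 for CHD4. Among signalling enzymes, the kinase gene Lyn had 5.13 and 4.23 with CHD4 at 3.03 and 3.36 at its TSS, and the phospholipase gene Plcg2 had 8.83 and 8.72 with CHD4 at 3.90 and 3.61 over its TSS (chr8:117494053-117500604). Pik3cd and Pik3ap1, a catalytic subunit of phosphoinositide 3-kinase and its B cell adaptor, had Ikaros folds of 11 and 14 and of 9.25 and 10.4 at their starts. The TSS of Dok3, an inhibitory adaptor of the receptor, was CHD4-only, with CHD4 folds of 3.56 and 3.24. The tyrosine kinase gene Syk, with 4.10 and 5.58, and Bcl10, with 4.53 and 4.22, were Ikaros-only at theirs.

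Among transcription factors of the B lineage, 13 of 33 genes had a region of all 4 lists within 20 kb of a TSS, beside 1205 of 21911 protein-coding genes (5.5%) and 10.1% of those with H3K27ac at a TSS. Within 1 kb it was 5 of 33 genes for regions of all 4 lists, 4 of 33 (12.1%) for Ikaros-only and 2 of 33 for CHD4-only regions, beside 3.55%, 16.8% and 0.854% of acetylated genes. The same shares of all protein-coding genes were 1.64%, 7.66% and 0.383%, so the Ikaros-only share lay between the 2 backgrounds. At the wider distance, Ikaros-only regions lay within 20 kb of 14 of 33, beside 16% of protein-coding genes and 28.5% of acetylated ones, and CHD4-only regions within 20 kb of 6 of 33, beside 1.24% and 2.28%. Pax5, which holds B cell identity, had 3 regions of all 4 lists, the one over its TSS with Ikaros folds of 5.40 and 8.89 and CHD4 folds of 4.25 and 3.42 (chr4:44710439-44712429). Lef1, a partner of beta-catenin, had one 2326 bp from its TSS with 11.2 and 13.6 for Ikaros and 4.00 and 3.90 for CHD4. Pou2af1, an octamer coactivator of B cells, had 5.16 and 7.27 for Ikaros and 3.41 and 3.68 for CHD4 over its TSS, and the E-protein inhibitor Id3 had 6.47 and 5.85 and 4.16 and 4.03. Fli1 and Runx1 each had one at a TSS too, with Ikaros folds of 8.91 and 10.6 and of 6.9 and 7. Ikzf3, the Ikaros relative Aiolos, had one 17341 bp away with 7.97 and 9.83 for Ikaros and 3.62 and 3.46 for CHD4. CHD4-only regions included one over the TSS of the repressor gene Gfi1, with CHD4 folds of 3.75 and 3.54, and one 403 bp from a TSS of Spi1, the gene of PU.1, with 4.47 and 3.49. Myb was Ikaros-only at its TSS, with 4.45 and 7.11.

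Of 17 genes that the study names as quickly repressed after induction, a list the study chose from the same cells and so no independent evidence, 5 had a region of all 4 lists within 1 kb of a TSS and 10 within 20 kb, beside 1.64% and 5.5% of protein-coding genes and 3.55% and 10.1% of those with H3K27ac at a TSS. Serpinf1, the gene of a secreted serpin, had the highest HA folds among those at a TSS, 27.3 and 20.1, with CHD4 at 4.05 and 4.04. Endod1 had Ikaros folds of 16.4 and 23.7 and CHD4 folds of 4.73 and 3.83 in a region 13628 bp from its TSS. Dntt, which encodes terminal deoxynucleotidyl transferase, had 2 such regions, with Ikaros folds of 4.96 and 5.21 and of 3.88 and 5.03. Itga5, an integrin gene, had 3, the strongest with 13.8 and 18 for Ikaros and 3.86 and 4.24 for CHD4. Gins2, a DNA replication gene, was Ikaros-only at its TSS, with 4.40 and 15.2.

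The other lists fell on both sides of the background, and for some the side depended on which genes were taken as background. Regions of all 4 lists lay within 1 kb of a TSS of 5 of 24 adhesion and migration genes, 2 of 22 immediate early genes, 2 of 13 genes of the IL-7 receptor and STAT5 pathway, 1 of 15 NuRD subunit genes, 1 of 30 cell cycle genes, 1 of 17 glycolysis genes, 1 of 79 cytosolic ribosomal protein genes, 0 of 18 BCL2 family genes and 0 of 12 V(D)J recombination genes, beside the same 1.64% of all and 3.55% of acetylated protein-coding genes. The 1 of 30 cell cycle genes (3.33%, all 30 with H3K27ac at a TSS) lay above the first share and below the second. Vcl, the gene of the focal adhesion protein vinculin, had Ikaros folds of 16.9 and 32.3 and CHD4 folds of 3.52 and 4.11 over its TSS, and the GTPase gene Rac2 had 17.9 and 16.8 and 3.47 and 3.30. Dusp2, a phosphatase gene, had 16.8 and 23.9 and 3.21 and 4.08 at 60 bp from a TSS. Ikaros-only regions lay within 1 kb of a TSS of 5 of 18 BCL2 family genes, 5 of 24 adhesion genes, 4 of 17 glycolysis genes, 3 of 13 IL-7 receptor pathway genes, 3 of 22 immediate early genes, 2 of 15 NuRD subunit genes, 3 of 30 cell cycle genes, 1 of 12 V(D)J recombination genes and 7 of 79 ribosomal protein genes, beside 7.66% of protein-coding genes and 16.8% of those with H3K27ac at a TSS. All 79 ribosomal protein genes had H3K27ac at a TSS, so their share of 8.86% lay below that of acetylated genes. Rps19, a small-subunit ribosomal protein gene, had HA folds of 15.8 and 28.0 at its TSS with no CHD4 call at 0 h or at 2 h, and the integrin gene Itgb1 had 15.5 and 16.4. CHD4-only regions were within 1 kb of a TSS of 0 genes in 8 of these 9 lists and of 1 gene, Socs2, in the IL-7 receptor list, beside 0.383% of protein-coding genes and 0.854% of acetylated ones.

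The classes also differed in base composition. Over the 300 bases at the midpoint, Ikaros-only regions had a GC content of 55.7% and 12.1 CG dinucleotides, regions in all 4 lists 51.0% and 6.37, and CHD4-only regions 49.9% and 8.08. All merged regions had 52.3% and 9.04. Part of this went with promoters, but within 1 kb of a TSS the numbers of CG dinucleotides were still 16.8, 9.68 and 12.6. Farther away they were close together, at 5.53, 4.76 and 5.64. The GC box GGGCGG, on either strand, was in 45.8% of promoter windows of the Ikaros-only class and 22.1% of those in all 4 lists, beside 35.6% of all 32817 annotated promoters of RefSeq (GRCm38). The windows of annotated promoters ran from 250 bases before a start to 50 after it. They were thus placed otherwise than the region windows, which were centred on midpoints. The Ikaros word TGGGAA was in 41.0% of Ikaros-only, 32.8% of all-4 and 19.8% of CHD4-only windows, beside 33.9% of all merged regions and 25.6% of promoters. The ETS word GGAAGT, which overlaps the core GGAA, followed the same order with 37.2%, 29.5% and 21.2%. The RUNX word TGTGGT was in 23.1%, 27.9% and 28.3%, and the E-box CAGGTG in 17.6%, 23.6% and 21.6%, beside 25.3% and 20.4% of all merged regions. Another E-box, CAGCTG, ordered the classes differently, with 22.5%, 24.5% and 16.3%, beside 21.5%. Away from promoters the RUNX word stood at 34.8%, 29.5% and 30.4% and CAGCTG at 30.7%, 26% and 14.7%, so Ikaros-only regions had the highest share of both there. All these values by class were taken at midpoints, which in wide regions can lie away from the Ikaros summit. They were not taken at the summits, so the orders of the classes hold for midpoints only.

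Core words were counted as a density within 100 bp of the centre minus the flanks 400 to 500 bp away. The excess was 1.46 words per 100 bp in Ikaros-only regions, 0.356 in all 4 lists and 0.272 in CHD4-only regions, beside 0.807 over all merged regions. With windows at the Ikaros summit in place of the midpoint, the difference between all 4 lists and Ikaros-only regions was −0.23 in place of −1.11 words per 100 bp.

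The classes were followed in the libraries made after 4-OHT, which the class rule did not use. The rule did use the 0 h calls of the same targets, and all merged regions include regions called for each target at 0 h. A class without calls for a target at 0 h is therefore not placed beside a like background below. Ikaros was called at regions of all 4 lists in 76.7% to 95.0% of cases over the 6 later Ikaros lists, at Ikaros-only regions in 33.8% to 72.8% and at CHD4-only regions in 29.0% to 65.4%, beside 32.3% to 67.1% of all merged regions. At CHD4-only regions the share was 36.0% and 29.0% at 30 min, 51.6% and 65.4% at 1 h and 64.7% and 61.1% at 2 h (replicates 1 and 2). Both 2 h lists called Ikaros at 144 of 283 CHD4-only regions (50.9%), beside 52.2% of all merged regions. CHD4 was called at regions of all 4 lists in 58.1% to 84.2%, at CHD4-only regions in 54.4% to 87.3% and at Ikaros-only regions in 10.4% to 34.2%, beside 21.9% to 47.7% of all merged regions. Both 2 h lists called CHD4 at 225 of 2719 Ikaros-only regions (8.28%), beside 19.8% of all merged regions, and 1281 (47.1%) were called for CHD4 in none of the 6 later lists. Over the alternatives the 8.28% ranged from 5.74% (50% overlap) to 39.5% (a call in at least 1 of the 2 h lists). It was 13.7% with equal list lengths and 19.7% with a −log10 q of at least 3. The 2 h CHD4 lists differed in length, with 5523 and 9593 peaks, and called 13.5% and 34.2% of the Ikaros-only regions.

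**Figure D5:**
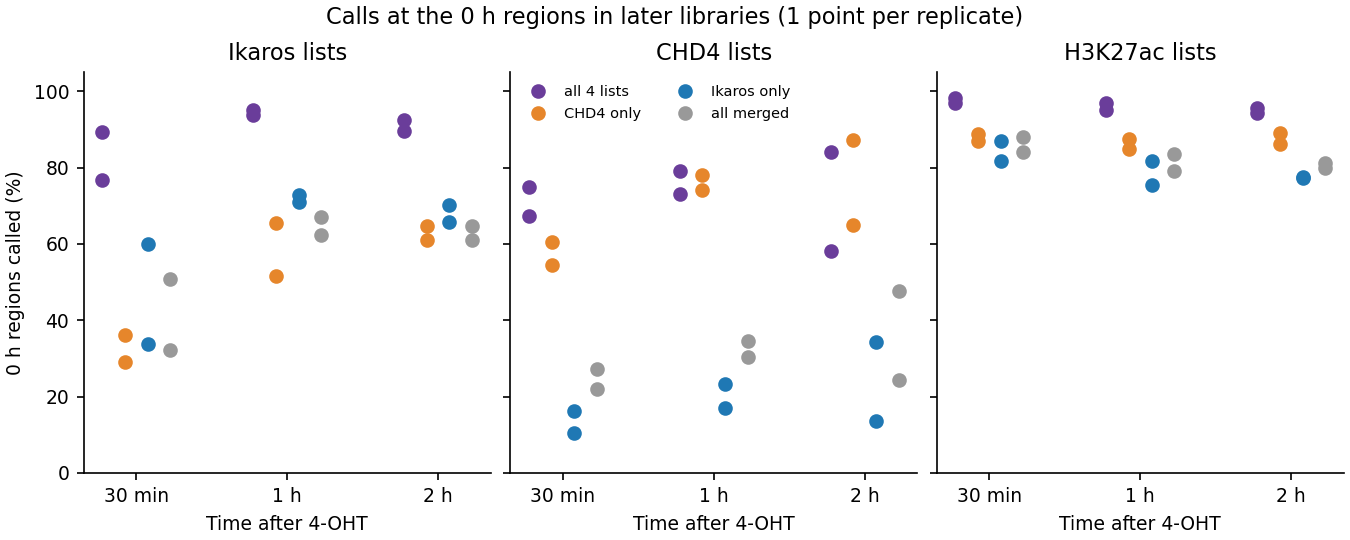
Share of the 0 h regions of each class (vertical axis, %) that overlapped a peak in the Ikaros, CHD4 and H3K27ac lists 30 min, 1 h and 2 h after 4-OHT, with 1 point per replicate. CHD4 calls at Ikaros-only regions, a class chosen for having no CHD4 call at 0 h, stayed between 10.4% and 34.2%. They lay below the points of the other classes and of all merged regions in each list.

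H3K27ac peaks were still called at most regions, which gives their presence and not their level, since a strong peak can lose signal and still be called. Of regions acetylated in both 0 h lists, the 2 h lists called 97.5% and 96.5% in all 4 lists, 90.9% and 90.6% in Ikaros-only and 97.9% and 97.1% in CHD4-only regions. The like share of all merged acetylated regions was not computed. Without that condition the class shares were 95.5% and 94.3%, 77.6% and 77.2%, and 89% and 86.2% in the same order, beside 81.2% and 80% of all merged regions. The highest HA folds were lower after induction than at 0 h, with maxima of 43.7 and 45.9 at 0 h and between 14.3 and 23.5 in the 6 later lists. Folds depend on depth and on the background of each library, so this was not read as a change in binding.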

How the data were processed

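ChIP-seq libraries of B3 cells were grouped by title. Per the labels and methods, the authors used Bowtie2 2.4.2 to map read pairs to mm10, marked duplicates (Picard 2.23.7) and called peaks per library with MACS2 2.2.7.1, narrow for Ikaros and H3K27ac and broad for CHD4; whether a blacklist was applied to these lists is not given in the sources used here. Each deposited list gives a fold enrichment (a ratio over local background), −log10 p and −log10 q, and a display score that the authors' caller wrote and that was not used here. Broad peaks carry averages over the peak, so their q-values are not on the scale of narrow ones. There are no read counts, so no count test was run. The deposited fold and −log10 p together gave a most common background of 3.4 and 2.7 fragments per base in the Ikaros lists, on the scale of the caller, and for the CHD4 libraries the depth is unknown.

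The 4 lists at 0 h were merged wherever peaks shared at least 1 bp. TSSs were those of GENCODE M21, promoter meant within 1 kb of a TSS, and a gene was set beside regions within 1 kb or 20 kb. Shares of the lists were compared by an exact two-sided permutation test (n = 2 lists per target). Regions are not replicates, so classes were described without a test. The labels do not say that replicates are separate cultures, so their spread may be technical. The functions were tested on simulated lists (Python 3.11.15, scipy 1.17.1). Named regions were the top 8 of all 4 lists and the top 6 of each other class by mean fold percentile, each with the gene of its nearest TSS or the gene that it overlaps, and any gene of 17 lists could be named. The classes, gene lists and alternatives were chosen with earlier results of these data known. Inputs were not analysed here.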

Additional observations from a re-analysis of the deposited data

How the results depend on the processing

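Over 14 results and 108 alternatives, 6 values changed sign. Of the others, 46 moved by more than the spread of the replicates (counts by over 1.5 times) without changing sign, and 56 did not or, for the tested differences, kept their direction. For the tested differences only the direction was compared. Their p-values could not fall below 0.33 in any setting, so they say nothing on robustness. The alternatives were a −log10 q or a fold of at least 3, lists cut to equal length, 1 replicate at a time, a 50% overlap, promoters within 3 kb or of protein-coding genes, and other H3K27ac, centre and 2 h rules. The distal excess with its alternatives, midpoint distances, the 300 bp midpoint window, regions with 1 Ikaros peak per list and leaving out chromosomes X and Y (268 CHD4-only regions) were chosen after seeing the data. Calls absent from a short or shallow list limit every class, and the lists give no CHD4 depth.

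With a −log10 q of at least 3, regions numbered 135 in all 4 lists, 4513 Ikaros-only and 45 CHD4-only. The H3K27ac difference was then −2.93 points between lists, −1.69 for all 4 lists and −46.9 for CHD4-only against Ikaros-only regions, the promoter differences were −17.4 and −28.5, the core word difference −0.86, the 2 h shares 19.7% (CHD4) and 33.3% (Ikaros), and the distal excess 5.40. With equal list lengths the classes held 514, 775 and 506 regions, the promoter differences were −33.8 and −28.8, the H3K27ac differences 9.40 and 3.21, the percentile difference 4.52, the 2 h shares 13.7% and 73.3%, and the distal excess 25.1. With a fold of at least 3, the CHD4-only differences were 8.04 (H3K27ac) and −19.4 (promoter) and the distal excess 18.8.

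The H3K27ac difference of CHD4-only regions was near 0 and changed sign with H3K27ac in at least 1 list (−1.64, and 9.65 for all 4 lists), with H3K27ac folds of at least 3 (−1.76) and with the 300 bp midpoint window (−3.73). The cause of these sign changes was not tested. Midpoint distances gave −31.1 for all 4 lists, and protein-coding TSSs −27.3 for CHD4-only regions and a distal excess of 21, which was 16.4 with 3 kb promoters and 24.2 with H3K27ac peaks. The core word difference was −0.23 at the summit and −0.95 without flanks. In at least 1 of the 2 h libraries, the shares were 39.5% and 74.9%.

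Leaving out a replicate gave 1591 to 3660 regions of all 4 lists, 5454 to 6094 Ikaros-only and 895 to 2339 CHD4-only. The differences ranged from −17.2 to −8.06 and 4.25 to 5.11 points (lists, promoter and H3K27ac), from −23.0 to −16.0 and 11.3 to 15.2 (all 4 lists), and from −20.1 to −14.7 and 0.726 to 3.54 (CHD4-only). The percentile difference ranged from 23.4 to 25.4, core words from −0.78 to −0.67, the 2 h shares from 7.68% to 12% and 36.5% to 52.2%, and the distal excess from 18.8 to 19. The labels give the lists the same replicate numbers without saying what they share. With the replicate block, the list differences were −12.6 and 4.68 points (exact sign-flip p = 0.5, the smallest that 2 pairs can give). The block enters only the p-value, so the differences themselves could not change.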

Other observations

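Some regions of all 4 lists lay at genes used as markers of T cells. They covered a TSS of Zap70, a kinase of the T cell receptor, with Ikaros folds of 5.17 and 7.5 and CHD4 folds of 3.34 and 3.48, and a TSS of the adaptor gene Lat, with 4.53 and 5.40 and 3.65 and 3.46. One 359 bp from a TSS of Cd3d had 4.96 and 5.87 and 3.63 and 3.29. Each carried H3K27ac in both 0 h lists. In all, 3 of 12 T cell marker genes had a region of all 4 lists within 1 kb of a TSS, against 4 of 12 pre-B cell, 0 of 12 myeloid, 0 of 12 erythroid and megakaryocyte and 0 of 12 non-blood marker genes, beside 1.64% of protein-coding genes and 3.55% of those with H3K27ac at a TSS.

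Within 1 kb of a TSS, the share of Ikaros peaks with CHD4 was lower where the DNA held more CG dinucleotides. In replicate 1 it was 22.3% with at most 4 of them in the 300 bases at the summit, 16.1% with 5 to 14 and 8.92% with 15 or more, and in replicate 2 it was 46.5%, 36.4% and 22.9%. The median fold percentile of these peaks was 44.6, 46.4 and 48.4 in replicate 1 and 41.8, 46.5 and 48.4 in replicate 2. Over 1 kb from a TSS the shares were 29.2%, 31.6% and 24.6% in replicate 1 and 49.7%, 53.5% and 38.1% in replicate 2, with 171 and 160 peaks in the last bin.

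At 2 h, CHD4 was called more often at promoters than at distal sites in the Ikaros-only regions and in the regions of all 4 lists. CHD4 was called at 17.6% and 38.1% of the 1589 promoter regions and at 7.88% and 28.7% of the 1130 distal ones (replicates 1 and 2). In all 4 lists it was called at 63.1% and 87% of the 439 promoter regions and at 55.6% and 82.9% of the 906 distal ones. Over all merged regions the shares were 25% and 45.9% at promoters and 23.7% and 49.2% at distal sites. The classes were chosen by their CHD4 calls at 0 h, and the differences were not tested.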
